A study of Mus musculus with 6 samples.

Results

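The genes described here encode MHC class I molecules and the proteins that load them with peptide. They were picked by gene name from the deposited expression table, by a rule that sets no threshold on a measured value although earlier results of these data were known, and are H2-K1, H2-D1, H2-Q4, H2-Q7, H2-T22, H2-T23, B2m, Tap1, Tap2 and Tapbp, 10 of the 54532 genes listed. RNA-seq was performed on whole colon tumors of 3 Tmem173fl/fl mice (labelled AOM_WT) and 3 Tmem173fl/flLyz2-Cre ert2 mice (labelled AOM_CRE and called Tmem173iΔmye). Both groups were on the C57BL/6N background and carried Tmem173, the gene encoding STING, flanked by loxP sites. Both received the carcinogen azoxymethane (AOM), repeated cycles of dextran sodium sulfate (DSS) in the drinking water and, after tumors had formed, tamoxifen (TAM), which activates the Cre recombinase. Cre is driven by Lyz2, so Tmem173 is deleted in myeloid cells such as macrophages and neutrophils and kept in the epithelial tumor cells. The ages of these mice at the end of the experiment are not given in the sources used here. Nothing in the labels says more of the replicates than their numbers, so p-values measure the spread between these samples. In bulk tumor RNA, fewer cells of a type and less RNA per cell cannot be told apart.

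MHC class I molecules are carried by nearly all nucleated cells and present peptides from inside the cell to CD8+ T cells. A heavy chain, encoded by an H2 gene in the mouse, pairs with the light chain β2-microglobulin. The proteasome cuts proteins into peptides, the transporter made of Tap1 and Tap2 carries them into the endoplasmic reticulum, and Tapbp (tapasin) holds empty class I molecules beside the transporter until a peptide is bound. Transcription of these genes is raised by interferons, in part through IRF1, and by the transactivator NLRC5. Loss of class I expression is a known route by which tumors escape T cells.

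The promoters of these genes are known for a shared set of short elements: an NF-κB motif and an interferon-stimulated response element (ISRE) upstream, followed by elements bound by CREB/ATF and NF-Y factors, on which NLRC5 acts. RefSeq promoter windows, from 250 bases before to 50 bases after the transcription start, were matched by symbol for 9 of the 10 genes. They are shown for 6 genes because they cover the classical heavy chains, the heavy chain with the largest fold change, the light chain and the loading genes. The stretches run 5′ to 3′ from 250 bases before the start through 20 bases from it, in GRCm38.p6, and capitals mark matches on either strand to the ISRE core GAANNGAAA, the κB motif (GGG, any 2 bases, TT, any base and CC), the cAMP response element core TGACG or the CCAAT box.
H2-K1, chr17:34000328-34000597, minus strand: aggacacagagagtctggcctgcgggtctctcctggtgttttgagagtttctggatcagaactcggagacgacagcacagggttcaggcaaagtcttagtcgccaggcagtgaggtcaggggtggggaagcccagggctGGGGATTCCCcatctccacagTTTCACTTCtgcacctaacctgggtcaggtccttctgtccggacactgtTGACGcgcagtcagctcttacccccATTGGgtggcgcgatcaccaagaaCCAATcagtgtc
H2-D1, chr17:35262844-35263113, plus strand: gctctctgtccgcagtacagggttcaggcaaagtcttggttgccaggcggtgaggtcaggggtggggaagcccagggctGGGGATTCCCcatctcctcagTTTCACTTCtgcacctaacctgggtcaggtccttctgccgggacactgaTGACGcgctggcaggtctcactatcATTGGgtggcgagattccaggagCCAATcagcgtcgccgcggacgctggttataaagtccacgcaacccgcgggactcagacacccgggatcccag
H2-Q7, chr17:35438905-35439174, plus strand: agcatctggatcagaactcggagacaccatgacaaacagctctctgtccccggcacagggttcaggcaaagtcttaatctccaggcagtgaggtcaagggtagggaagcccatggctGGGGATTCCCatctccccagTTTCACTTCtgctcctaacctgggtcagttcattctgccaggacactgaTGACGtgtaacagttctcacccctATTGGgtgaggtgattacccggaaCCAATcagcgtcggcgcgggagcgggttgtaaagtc
B2m, chr2:122147437-122147706, plus strand: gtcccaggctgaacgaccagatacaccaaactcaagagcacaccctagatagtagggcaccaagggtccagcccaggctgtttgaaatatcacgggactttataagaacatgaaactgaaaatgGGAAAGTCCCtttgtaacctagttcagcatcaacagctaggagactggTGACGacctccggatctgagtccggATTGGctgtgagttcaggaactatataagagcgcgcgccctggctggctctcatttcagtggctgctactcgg
Tap1, chr17:34187306-34187575, plus strand: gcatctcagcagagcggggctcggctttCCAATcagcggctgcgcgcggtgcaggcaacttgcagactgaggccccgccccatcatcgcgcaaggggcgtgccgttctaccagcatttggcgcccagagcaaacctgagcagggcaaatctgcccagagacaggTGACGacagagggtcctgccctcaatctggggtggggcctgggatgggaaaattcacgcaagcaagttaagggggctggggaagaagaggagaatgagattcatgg
Tapbp, chr17:33919228-33919497, plus strand: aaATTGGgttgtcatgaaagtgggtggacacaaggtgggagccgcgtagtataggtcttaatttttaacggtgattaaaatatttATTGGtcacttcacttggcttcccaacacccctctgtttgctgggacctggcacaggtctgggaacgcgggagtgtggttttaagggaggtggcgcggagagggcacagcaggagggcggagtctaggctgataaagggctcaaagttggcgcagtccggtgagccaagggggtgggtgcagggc

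The ISRE core as spelled here was present in 4 of 9 windows, those of H2-K1, H2-D1, H2-Q4 and H2-Q7, and in 7.52% of all 32851 windows of the same length. The κB motif was present in 5 of 9, the same 4 heavy chains and B2m, against 4.79% of all windows. A longer ISRE spelling, with a further base in the shorter repeat, cannot match this core. It occurred in the windows of B2m (gaaactgaaa) and, on the opposite strand, of H2-T22 (tttcactttc) and H2-T23 (tttctctttc). These genes thus do not lack an ISRE-like element. The share of all windows with the longer spelling was not counted. In H2-K1 the κB motif lay at -111 to -102 and the ISRE core at -90 to -82, and in H2-D1 they lay at -171 to -162 and -150 to -142. TGACG was found in 7 of 9 windows (20.8% of all windows), CCAAT in 9 of 9 (37.4% of all windows) and the interferon-γ activated site TTCNNNGAA in 0 of 9 (8.3% of all windows). The window of H2-Q4 held 2 κB matches that overlap by all but 1 base, and no other 2 motifs overlapped. The windows of H2-K1 and H2-D1 were 88.3% identical over 239 aligned bases, and those of H2-Q4 and H2-Q7 were 87.3% identical over 260 aligned bases, so their shared motifs are not independent of each other. H2-K1 had 2 windows in the RefSeq table, of which the first is used, so its distances are counted from that start. A CCAAT match of H2-K1 lay past this start, at 9 to 13, while one of H2-D1 lay at -53 to -49. The distances of the 2 genes are thus not directly comparable. The motifs were chosen after these sequences had been seen, so the shares are a description. Such matches describe the letters of a window and are not measured binding sites.

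**Figure D1:**
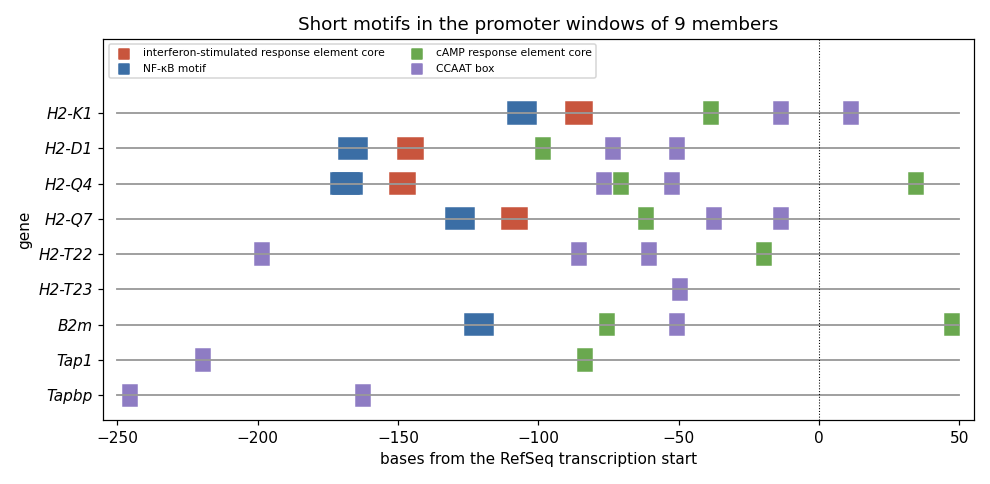
Matches to 4 short motifs (colored boxes) in the promoter windows of 9 genes, drawn to scale by their distance in bases from the RefSeq transcription start (dotted line). The 4 heavy chains at the top hold the κB motif and the ISRE core as spelled here in the same order. Their starts are 20 or 21 bases apart. Of the 4 motifs, H2-T23 and Tapbp matched the CCAAT box alone. The longer ISRE spelling, found in the windows of B2m, H2-T22 and H2-T23, is not drawn.

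Library totals ranged from 15329810 to 16533732 counts. The targeted gene, Tmem173, had 1705 to 2911 counts in Tmem173fl/fl and 1953 to 2291 counts in Tmem173iΔmye tumors, so whole-tumor RNA did not separate the genotypes. Y-linked reads (2655 to 3547) marked 3 tumors, namely replicate 1 of Tmem173fl/fl with replicates 1 and 2 of Tmem173iΔmye, and the other 3 tumors had 2 or fewer. The 16426 genes that averaged 0.5 FPKM or more were tested by edgeR (quasi-likelihood), and the p-values were adjusted by the Benjamini-Hochberg method. None of them (0) reached an adjusted p under 0.05, 1008 (6.14%) had an unadjusted p under 0.05, and DESeq2 gave 27 at an adjusted p under 0.05.

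All 10 genes had higher mean levels in Tmem173iΔmye than in Tmem173fl/fl tumors, by 1.25-fold for Tapbp to 3.73-fold for H2-Q7, and none passed the test. Their median log2 fold change (log2 FC, Tmem173iΔmye over Tmem173fl/fl from edgeR throughout) was 0.92, against -0.0042 over all genes tested, and 49.4% of all genes tested had a fold change above 0. The number at an unadjusted p under 0.05 was 0 of 10 (3.23% of all genes were called higher and 2.9% lower), and 4 of 10 had a log2 FC of at least 1 (3.12% of all genes), of which 0 also had an unadjusted p of 0.05 or less (1.26% of all genes). The groups overlapped for each of the 10 genes (6.03% of all genes were higher without overlap). By DESeq2, 0 genes of the 10 had an adjusted p under 0.05 and 4 an unadjusted one (H2-D1, H2-T22, H2-T23 and Tap2; 3.57% of all genes were called higher).

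The difference rested mostly on Tmem173iΔmye replicate 1. This tumor had the highest level of all 10 genes (24.9% of all genes were highest there), and in 9 of 10 it stood at least 1 log2 unit above the mean of the other 5 tumors (3.65% of all genes). Tmem173fl/fl replicate 2 had the lowest level of 9 of the 10 genes, all but Tapbp (4454 of the 16426 genes tested were lowest there). Both held for 9 of the 10 genes (11.4% of all genes were highest in Tmem173iΔmye replicate 1 and lowest in Tmem173fl/fl replicate 2). In 8 of 10 genes, Tmem173iΔmye replicate 2 was below both Tmem173fl/fl replicates 1 and 3. In 7 of 10 genes, Tmem173iΔmye replicate 3 was above all Tmem173fl/fl tumors. The shares of all genes with these orders were not counted. Without Tmem173iΔmye replicate 1, the median log2 FC of the 10 genes was 0.26 (all genes tested, -0.017), 9 of 10 stayed above 0 (46.9% of all genes) and each adjusted p was 0.9999 by edgeR.

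**Figure D2:**
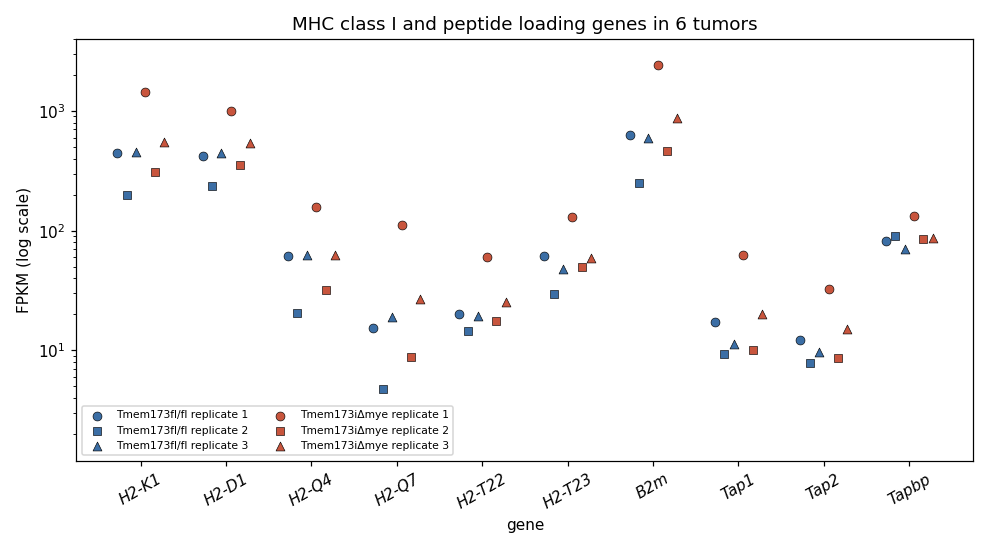
FPKM of the 10 genes in each tumor, on a log axis, with blue for Tmem173fl/fl, red for Tmem173iΔmye and the marker shape for the replicate. The red circle, Tmem173iΔmye replicate 1, is the highest point of every gene, and the other 2 red points lie among or near the blue ones. The red triangle, Tmem173iΔmye replicate 3, is above all blue points for 7 of 10 genes.

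The classical heavy chains H2-K1 and H2-D1 form the main peptide-presenting molecules for CD8+ T cells. H2-K1 (ENSMUSG00000061232, chr17:33996017-34000333 of GRCm38) had 444, 199 and 456 FPKM in replicates 1, 2 and 3 of Tmem173fl/fl and 1439, 308 and 555 FPKM in those of Tmem173iΔmye. Tmem173iΔmye replicates 2 and 3 lay below and above Tmem173fl/fl replicates 1 and 3. The means were 367 ± 145 and 767 ± 595 FPKM (SD, n = 3 each), with a log2 FC of 1.06 (SE 0.56, adjusted p = 0.742 by edgeR), which fell to 0.23 (SE 0.41) without Tmem173iΔmye replicate 1. H2-D1 (ENSMUSG00000073411, chr17:35262730-35267499) had 419, 235 and 446 FPKM in Tmem173fl/fl and 1004, 355 and 535 FPKM in Tmem173iΔmye tumors. Its order over the 6 tumors was the same as that of H2-K1, with a narrower spread. The means were 366 ± 115 and 631 ± 335 FPKM (SD, n = 3 each), with a log2 FC of 0.78 (SE 0.40, adjusted p = 0.742 by edgeR).

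The non-classical heavy chains are less variable between mouse strains and are expressed at lower levels. In GRCm38 they lie at chr17:35379617-35385290 (H2-Q4), chr17:35439155-35443773 (H2-Q7), chr17:36037128-36042747 (H2-T22) and chr17:36029773-36032855 (H2-T23). H2-T23 encodes Qa-1, which presents leader peptides of other class I molecules to the receptor of CD94 and NKG2A on natural killer and T cells. It had 61.6, 29.8 and 47.5 FPKM in Tmem173fl/fl and 131, 49.5 and 58.8 FPKM in Tmem173iΔmye tumors, with a log2 FC of 0.78 (SE 0.40, adjusted p = 0.742 by edgeR). Apart from Tmem173iΔmye replicate 1, its highest tumor was Tmem173fl/fl replicate 1. H2-T22, a ligand of some γδ T cell receptors that carries no peptide, had 20.2, 14.6 and 19.3 FPKM in Tmem173fl/fl and 60.5, 17.7 and 25.6 FPKM in Tmem173iΔmye tumors. Its Tmem173fl/fl tumors lay close together, and it had the smallest unadjusted p of the 10 genes, 0.0551, with a log2 FC of 0.94 (SE 0.42, adjusted p = 0.742 by edgeR).

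H2-Q7, which encodes Qa-2, had the widest range. It had 15.5, 4.80 and 19.0 FPKM in Tmem173fl/fl and 112, 8.78 and 26.7 FPKM in Tmem173iΔmye tumors. In CPM + 1, Tmem173iΔmye replicate 1 was 8.60 times the geometric mean of the other 5 tumors. The log2 FC was 1.90 (SE 0.87, adjusted p = 0.742 by edgeR) and 0.43 (SE 0.63) without that tumor. H2-Q4, which encodes the secreted or membrane-bound Qb-1, had 61.6, 20.5 and 62.8 FPKM in Tmem173fl/fl and 157, 31.7 and 62.6 FPKM in Tmem173iΔmye tumors. It was the only one of the 10 genes whose direction turned without Tmem173iΔmye replicate 1, from a log2 FC of 0.79 (SE 0.61, adjusted p = 0.770 by edgeR) to -0.043 (SE 0.51).

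Reads of H2 genes can be split between similar copies. Of all 100-base windows of the transcript with the longest coding sequence, 21.9% of H2-Q7 and 14.2% of H2-T22 also occurred in a transcript of another gene, mostly H2-Q6 and H2-Q5 for the former and H2-T10 for the latter. The share was 4.64% for H2-D1, 2.66% for H2-Q4, 7.28% for H2-T23 and 0 for H2-K1, so the values of H2-Q7 and H2-T22 are the least certain. H2-Q6 had 44.7, 9.71 and 50.1 FPKM in Tmem173fl/fl and 209, 20.5 and 56.2 FPKM in Tmem173iΔmye tumors, the same order as H2-Q7. The coding sequences of H2-K1 and H2-D1 were 91.9% identical over 1074 aligned bases. When the reads of 20 class I heavy chain genes were added together, which removes the dependence on such splits among them, the sums were 2942, 1390 and 2997 CPM in Tmem173fl/fl and 8503, 2169 and 3592 CPM in Tmem173iΔmye tumors. The sum was thus highest in Tmem173iΔmye replicate 1 and lowest in Tmem173fl/fl replicate 2. Of the 9 tested heavy chains outside the 10 genes, 8 were highest in the former tumor (24.9% of all genes). In the latter tumor 7 of them were lowest (4454 of the 16426 genes tested). The log2 FC of the sum was 0.96 (SE 0.51, adjusted p = 0.743 by edgeR), and 0.23 without Tmem173iΔmye replicate 1. H2-K1 and H2-D1 together made up 75.7% to 81.7% of the heavy chain FPKM of each tumor.

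B2m (ENSMUSG00000060802), the light chain, is the only one of the 10 genes outside chromosome 17, at chr2:122147686-122153083. It had 634, 248 and 591 FPKM in Tmem173fl/fl and 2441, 466 and 879 FPKM in Tmem173iΔmye tumors. Tmem173iΔmye replicate 3 was above all Tmem173fl/fl tumors and replicate 2 was below 2 of them. The means were 491 ± 211 and 1262 ± 1042 FPKM (SD, n = 3 each), with a log2 FC of 1.35 (SE 0.61, adjusted p = 0.742 by edgeR) and of 0.45 (SE 0.44) without Tmem173iΔmye replicate 1. Of its transcript, 0% of 50-base windows occurred in another gene, unlike those of the heavy chains, at 8.79% to 44.7%.

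Tap1 and Tap2 encode the paired subunits of the peptide transporter. They lie near each other, at chr17:34187553-34197225 and chr17:34203527-34216321, with the proteasome gene Psmb8 between them. Tap1 had 17.1, 9.34 and 11.3 FPKM in Tmem173fl/fl and 62.9, 10.14 and 20.2 FPKM in Tmem173iΔmye tumors. Tap2 had 12.3, 7.87 and 9.64 FPKM in Tmem173fl/fl and 32.5, 8.68 and 15.0 FPKM in Tmem173iΔmye tumors. Both had the same order of the 6 tumors, and Tap1 had the wider range. In CPM + 1, Tmem173iΔmye replicate 1 was at 4.77 times the geometric mean of the other 5 tumors, against 3.06 times for Tap2. The log2 FCs were 1.30 (SE 0.60) for Tap1 and 0.91 (SE 0.44) for Tap2, each with an adjusted p of 0.742 by edgeR. They fell to 0.26 (SE 0.35) and 0.25 (SE 0.29) without Tmem173iΔmye replicate 1.

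Tapbp (ENSMUSG00000024308, chr17:33915899-33929288) departed from the other 9 genes. It had 81.5, 90.7 and 70.5 FPKM in Tmem173fl/fl and 132, 84.9 and 86.4 FPKM in Tmem173iΔmye tumors. Tmem173fl/fl replicate 2, the lowest tumor of the other 9 genes, was here the second highest. The log2 FC was 0.32 (SE 0.20, adjusted p = 0.754 by edgeR), the smallest of the 10, and 0.082 (SE 0.15) without Tmem173iΔmye replicate 1.

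**Figure D3:**
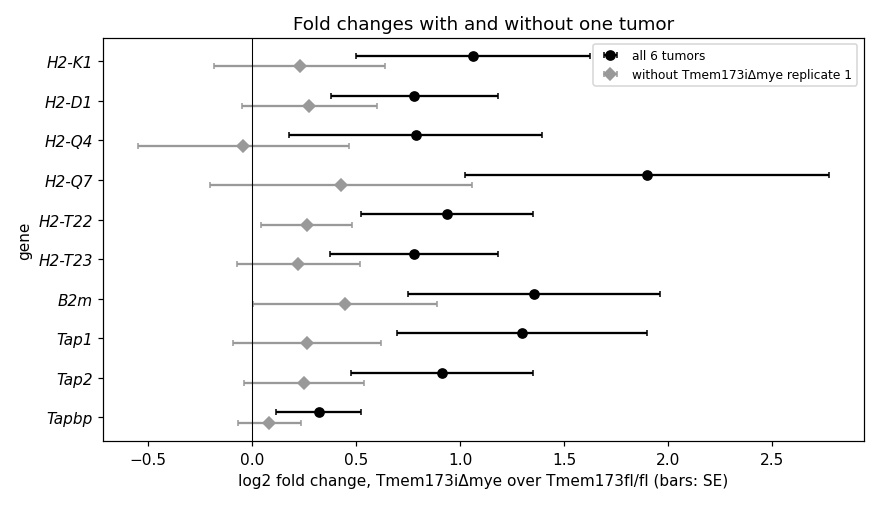
Log2 fold changes (Tmem173iΔmye over Tmem173fl/fl) of the 10 genes from edgeR, with bars of 1 SE, over all 6 tumors (black) and without Tmem173iΔmye replicate 1 (grey). Every black point is above 0, and the grey points lie between -0.043 and 0.45.

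Per length, over the 6 tumors, B2m had the highest mean level (876 FPKM), followed by H2-K1 (567 FPKM), H2-D1 (499 FPKM), Tapbp (91.0 FPKM), H2-Q4 (66.0 FPKM), H2-T23 (63.0 FPKM), H2-Q7 (31.1 FPKM), H2-T22 (26.3 FPKM), Tap1 (21.8 FPKM) and Tap2 (14.3 FPKM). Several neighbours in this order did not hold their places in each tumor. H2-K1 was above H2-D1 in 4 of 6 tumors, H2-Q4 above H2-T23 in 3 of 6 and H2-Q7 above H2-T22 in 2 of 6. B2m was above H2-K1, and Tap1 above Tap2, in 6 of 6 tumors.

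To compare how the 10 genes varied, log2(CPM + 1) was centred on the mean of each gene over the 6 tumors. As a description of 6 libraries, the closest profiles were those of H2-T22 and Tap2, with a root mean square difference of 0.11 log2 units, then H2-K1 and B2m (0.15) and H2-D1 and H2-T23 (0.17). The farthest were H2-Q7 and Tapbp (1.24). The reads of the 10 genes were 0.374%, 0.185% and 0.381% of all counts in Tmem173fl/fl and 1.04%, 0.285% and 0.462% in Tmem173iΔmye tumors. In percentage points, the tumor with the largest share stood apart from the others by more than they differed among themselves. On a log2 scale of these shares that did not hold.

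**Figure D4:**
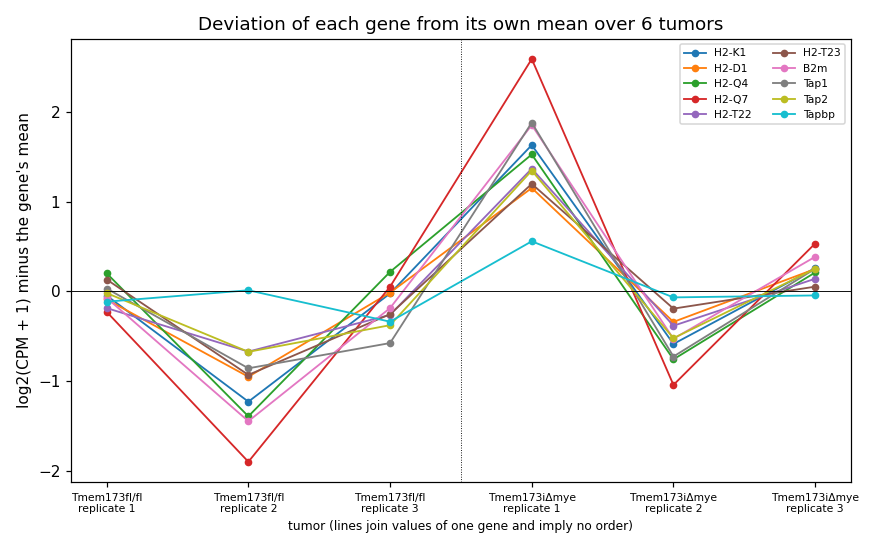
Deviation of log2(CPM + 1) of each gene from its own mean over the 6 tumors, with Tmem173fl/fl tumors left and Tmem173iΔmye tumors right of the dotted line. All genes peak in Tmem173iΔmye replicate 1, and 9 of 10 have their lowest point in Tmem173fl/fl replicate 2, with Tapbp (cyan) the flattest line.

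Outside the 10 genes, those whose profile was closest to their mean profile were the immunoglobulin segments Igkv8-27 (0.099 log2 units) and Ighv9-3 (0.22), Pthlh, a parathyroid hormone-related peptide (0.24), Sfrp1, a secreted Wnt antagonist (0.24), and the heavy chain H2-Q10 (0.24). Igkv8-27 rested on 1 to 62 counts per tumor and Ighv9-3 on 2 to 77. The 1 added to CPM narrows the log2 range of genes with so few counts, so the distances of both segments depend on it. Between the outermost of the 9 genes on chromosome 17, from 33915899 to 36042747, 125 other genes were tested, and 18 of them (14.4%) stood at least 1 log2 unit higher in Tmem173iΔmye replicate 1 than in the mean of the other 5 tumors, against 3.65% of all genes. These 18 included 9 other H2 genes, of class I and class II, and the immunoproteasome genes Psmb8 and Psmb9.

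The balance between the genes within a tumor was compared as ratios of FPKM, each by an exact two-sided permutation test whose smallest possible p with 3 tumors per group is 0.1, and adjusted over 5 ratios. The non-classical heavy chains H2-Q4, H2-Q7, H2-T22 and H2-T23 summed to 0.184, 0.161 and 0.165 of H2-K1 and H2-D1 in Tmem173fl/fl and to 0.188, 0.162 and 0.159 in Tmem173iΔmye tumors (exact p = 1). This ratio stayed within a narrow range while the levels themselves differed several-fold between tumors. The genes in the sum did not each keep a fixed share. In Tmem173fl/fl replicate 2, H2-Q4, H2-Q7, H2-T22 and H2-T23 made up 3.86%, 0.903%, 2.75% and 5.62% of the heavy chain FPKM. In Tmem173iΔmye replicate 1 they made up 4.85%, 3.47%, 1.87% and 4.05%. The ratio of B2m to the 6 heavy chains was 0.620, 0.493 and 0.563 in Tmem173fl/fl and 0.841, 0.604 and 0.696 in Tmem173iΔmye tumors (log2 difference 0.35, exact p = 0.2, adjusted 0.875). The groups overlapped by a single pair of tumors, Tmem173iΔmye replicate 2 and Tmem173fl/fl replicate 1. Tap1 over Tapbp was 0.210, 0.103 and 0.160 in Tmem173fl/fl and 0.477, 0.119 and 0.234 in Tmem173iΔmye tumors (log2 difference 0.65, exact p = 0.4, adjusted 0.875). H2-K1 over H2-D1 (log2 difference 0.16, exact p = 0.6) and Tap1 over Tap2 (0.22, exact p = 0.7) each had an adjusted p of 0.875, and both ratios were highest in Tmem173iΔmye replicate 1, at 1.43 and 1.94.

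The other genes of the pathway were taken from a list of 85, of which 81 were in the table and 68 were tested. Of these, 51 had a log2 FC above 0 and 17 below, with a median of 0.21, and 0 had an adjusted p under 0.05 by edgeR. Without Tmem173iΔmye replicate 1, 41 of 66 were above 0 (46.9% of all genes), with a median of 0.052. At an unadjusted p under 0.05, 6 were higher (8.82% of the 68, against 3.23% of all genes) and 0 were lower. The 6 were Irf9, Psme2, Fcgrt, Psmb5, Psmb9 and Stat2, and each had an adjusted p of 0.742 by edgeR. Without overlap of the groups, 4 of the 68 were higher (6.03% of all genes), among them Psme2, Fcgrt and Irf9. In the other direction, 1 of the 68 was lower without overlap (1063 of the 16426 genes tested). By role, the median log2 FC was 1.06 for 9 other heavy chains, 0.65 for 9 proteasome genes, 0.57 for 4 receptors for class I, 0.24 for 8 chaperones of the loading complex and endoplasmic reticulum, 0.19 for 16 transcriptional regulators, 0.042 for 7 class I-like molecules, and -0.080 for both 8 peptide-trimming enzymes and 7 interferon receptor and kinase genes.

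Psmb8 and Psmb9 encode catalytic subunits of the immunoproteasome, and Psme2 a subunit of its activator. Psmb9 had 10.5, 3.01 and 5.18 FPKM in Tmem173fl/fl and 42.6, 7.04 and 11.5 FPKM in Tmem173iΔmye tumors, with overlapping groups and a log2 FC of 1.70 (SE 0.71, unadjusted p = 0.0439 by edgeR). Psme2 had 49.3, 28.1 and 30.4 FPKM in Tmem173fl/fl and 125, 53.4 and 52.0 FPKM in Tmem173iΔmye tumors, so its groups did not overlap, with a log2 FC of 1.09 (SE 0.38, unadjusted p = 0.0220 by edgeR). Psmb8 had a log2 FC of 1.33 (SE 0.67) and Psmb5, the subunit that Psmb8 replaces, of 0.65 (SE 0.24). Among the steps after the proteasome, the trimming enzyme Erap1 had a log2 FC of 0.11 (SE 0.20, adjusted p = 0.900 by edgeR) and the chaperone Calr of 0.26 (SE 0.21, adjusted p = 0.770 by edgeR). Fcgrt, the class I-like neonatal Fc receptor, had a log2 FC of 0.42 (SE 0.16) and groups that did not overlap.

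Among the regulators, Nlrc5 had 5.22, 1.58 and 3.27 FPKM in Tmem173fl/fl and 22.1, 1.99 and 6.06 FPKM in Tmem173iΔmye tumors, the same order as Tap1 and B2m, with a log2 FC of 1.57 (SE 0.80, adjusted p = 0.742 by edgeR). Irf1 had a log2 FC of 0.83 (SE 0.40) and Stat2 of 0.67 (SE 0.29). Irf9, the DNA-binding part of a complex that recognises the ISRE, had 15.4, 13.3 and 12.1 FPKM in Tmem173fl/fl and 21.8, 16.5 and 18.0 FPKM in Tmem173iΔmye tumors, a smaller change without overlap (log2 FC 0.47, SE 0.15, unadjusted p = 0.0175 by edgeR). Ifng, which encodes interferon-γ, fell under the filter and had 0, 0 and 2 counts in Tmem173fl/fl and 50, 0 and 3 counts in Tmem173iΔmye tumors. Its reads were thus almost all in Tmem173iΔmye replicate 1. Ifnb1 had 0 or 1 count in each tumor. The part of Ifng in the levels of the 10 genes was not tested.

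**Figure D5:**
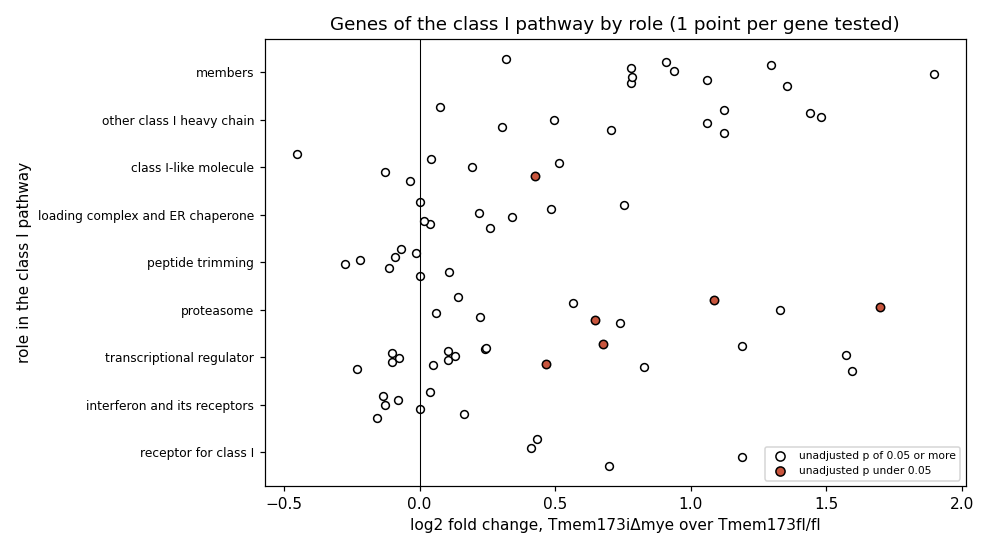
Log2 fold changes (Tmem173iΔmye over Tmem173fl/fl) of the 10 genes and of the tested genes of the pathway, 1 point per gene, by role, with filled points for an unadjusted p under 0.05 by edgeR. The other heavy chains and the proteasome genes lie right of 0, and the trimming enzymes and interferon receptors lie around it.

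The class II genes, which present peptides taken up from outside the cell and are expressed mainly by antigen-presenting cells, were set beside the class I genes. Of 10 tested, 7 had a log2 FC above 0 (49.4% of all genes), with a median of 1.36, and 2 had an unadjusted p under 0.05 by edgeR (3.23% of all genes were called higher), H2-Ab1 (log2 FC 1.69) and H2-Eb1 (1.63). At the same limit, DESeq2, limma and a fit with a term for Y-linked reads called 0. The count was also 0 when Tmem173iΔmye replicate 1, Tmem173fl/fl replicate 2 or Tmem173fl/fl replicate 3 was left out. It was 5 without Tmem173fl/fl replicate 1 (5.87% of all genes called higher). Without Tmem173iΔmye replicate 2 it was 5 (2.78% of all genes), and without replicate 3 of that group 6 (3.56%). With the replicate number as a block it was 6 (5.36% of all genes), and without a filter on low values 6 of 11 (3.19%). H2-Aa had 111, 40.2 and 53.6 FPKM in Tmem173fl/fl and 349, 103 and 63.2 FPKM in Tmem173iΔmye tumors. Cd74, the invariant chain of class II, had a log2 FC of 1.39 (SE 0.61, adjusted p = 0.742 by edgeR), and Ciita, the class II transactivator, of 1.59 (SE 0.78, adjusted p = 0.742 by edgeR). Without Tmem173iΔmye replicate 1, the median of the class II genes was 0.22, close to the 0.26 of the 10 class I genes.

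Markers of the cell types in the tumors were summed in CPM. The 9 epithelial markers summed to 11443 to 12635 CPM in Tmem173fl/fl and 12192 to 13786 CPM in Tmem173iΔmye tumors, and those of all leukocytes to 126 to 267 and 157 to 245 CPM. Macrophage markers summed to 267 to 341 and 281 to 439 CPM, neutrophil markers to 66.5 to 211 and 113 to 373 CPM, T cell markers to 12.3 to 33.4 and 20.8 to 39.5 CPM, and plasma cell markers to 579 to 671 and 670 to 995 CPM. These 4 sums and the epithelial sum were highest in Tmem173iΔmye replicate 1, as were the 10 class I genes (24.9% of all genes were highest there). Dendritic cell markers summed to 22.6 to 38.4 and 30.9 to 45.3 CPM, B cell markers to 2.64 to 116 and 5.81 to 60.2 CPM, fibroblast markers to 1740 to 2208 and 1787 to 2645 CPM, smooth muscle markers to 244 to 341 and 183 to 307 CPM, and endothelial markers to 87.7 to 93.6 and 90.5 to 109 CPM. The 4 natural killer cell markers summed to 0.267 to 0.910 and 1.58 to 1.83 CPM, without overlap, and Ncr1, Klrb1c and Klre1 were at 0 in at least 1 tumor. The sums of all leukocytes, B cells and smooth muscle were highest in Tmem173fl/fl replicate 1. Those of dendritic cells, fibroblasts and natural killer cells were highest in Tmem173iΔmye replicate 2, and that of endothelium in replicate 3 of the same group. In a fit that also carried a term for Y-linked reads, the median log2 FC of the 10 genes was 0.76. The part of these cell types in the levels of the 10 genes was not tested.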

How the data were processed

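RNA from tumors of 3 AOM_WT and 3 AOM_CRE mice was sequenced. Per the labels, the authors used fastp, HISAT2 2.0.5, featureCounts 1.5.0-p3 and DESeq2 1.20.0 with GRCm38. The deposited table, made by the authors, holds raw counts of reads on genes and FPKM values, which equal the counts divided by gene length, size factors and the geometric mean of the totals. Their columns of group means, fold changes and p-values were not used. Whether counting used strand, or dropped reads with several matches, is not given in the sources used here. Genes averaging 0.5 FPKM or more (16426) were tested on their counts by edgeR 4.0.16 (R 4.3.3), with TMM, group alone in the quasi-likelihood model and Benjamini-Hochberg adjustment. SE was taken as the size of the log2 FC over the root of F. Ranges of counts cover counting error and the spread between tumors. The script was tested on simulated counts. The 10 genes, the lists and the motifs were chosen with earlier results of these data known, and the motifs after the promoter sequences had been seen. Named genes are the 10, 8 preset pathway genes and up to 8 more with the lowest unadjusted p under 0.05, H2-Aa, Cd74 and Ciita, and the 5 nearest profiles. Of the preset genes, 1 is not reported here. H2-Ab1, H2-Eb1, H2-Q6 and Ifnb1 were named after their values were seen. Of the pathway list, H2-Q8, H2-Q9, H2-T9 and H2-L were not analysed here, and Nrdc and H2-Ea were read under older symbols. Alternatives used DESeq2 1.42.0, limma 3.58.1, other filters and scalings, the replicate number as a block, Y-linked reads as a covariate and each tumor left out. Promoter windows came from RefSeq, transcripts from GENCODE M21, and alignments from Biopython 1.88.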

Additional observations from a re-analysis of the deposited data

How the results depend on the processing

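Over 16 alternatives, 159 of 160 values of the 10 genes stayed above 0, H2-Q4 without Tmem173iΔmye replicate 1 being the exception (-0.043 to 1.17 with a tumor left out), and the smallest adjusted p of any of the 10 was 0.388. By unadjusted p under 0.05, 8 of the 10 were called without a filter on low values (3.19% of all genes called higher), 4 by DESeq2 and 0 to 8 with a tumor left out (8 without Tmem173iΔmye replicate 2, against 2.78% of all genes, and 1 without replicate 3, against 3.56%). When a log2 FC of 1 or more was also required, 4 were called without a filter (1.54% of all genes) and 0 to 8 with a tumor left out (8 without Tmem173iΔmye replicate 2, against 1.62% of all genes, and 1 without replicate 3, against 1.76%). The count of pathway genes called higher was 20 of 80 without a filter (3.19% of all genes) and 0 to 16 with a tumor left out. It was 0 of 69 without Tmem173fl/fl replicate 3 (1.78% of all genes). Without Tmem173iΔmye replicate 1 it was 1 of 66 (1.83% of all genes), and without replicate 2 of that group 16 of 69 (2.78%). The median log2 FC with a tumor left out was 0.26 to 1.25 for the 10 genes, 0.22 to 1.85 for class II and 0.23 to 1.31 for the summed heavy chains, lowest without Tmem173iΔmye replicate 1. The cause of these shifts was not tested.

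Nothing in the labels says whether tumors with the same replicate number were paired. The deviations of same-numbered tumors correlated at 0.315, 0.00846 and 0.154, and those of differently numbered tumors at -0.374 to 0.223. With so few tumors, these values do not settle whether the numbers pair them. With the number as a block, 9 of the 10 genes (all but Tapbp) had an unadjusted p under 0.05 (5.36% of all genes called higher), 2 passed both limits (1.53% of all genes) and 19 pathway genes were called higher.

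Over all genes, an adjusted p under 0.05 was reached by 6 without a filter, 27 by DESeq2 and 0 to 1 with a tumor left out. The count at an unadjusted p under 0.05 was 1741 without a filter and 553 with the Y-linked covariate, and 530 to 1664 with a tumor left out. The count past both limits (349) was 872 without a filter, 136 by limma on log2(FPKM + 1) and 211 with the Y-linked covariate, and 215 to 635 with a tumor left out. The log2 difference of the ratio of non-classical to classical heavy chains turned to 0.042 with CPM and was -0.076 to 0.059 with a tumor left out, and that of H2-K1 to H2-D1 was -0.037 to 0.33. With 3 tumors per group, changes smaller than the spread between tumors were not detectable.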
